A study of Mus musculus with 8 samples.

Results

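The ON bipolar mGluR6 signalling genes are the genes of the light response of ON bipolar cells, the retinal interneurons that depolarise when photoreceptors are lit. The genes were chosen by name: Grm6, Trpm1, Nyx, Rgs7, Rgs11, Gnao1, Gng13, Pcp2, Cabp5, and Prkca. All 10 were found, each under its own symbol, among the 21826 genes of the deposited tables. RNA sequencing had been done on slc:ICR mouse retina, with whole retina at E15 and E18 and, at P2, P5, and P8, a Cd73-positive (Cd73PC) and a Cd73-negative fraction (Cd73NC) separated by FACS from pooled retinas. Cd73, encoded by Nt5e, marks rod precursors and rods, so Cd73PC holds the rod lineage and Cd73NC the remaining retinal cells together. Neither fraction was sorted for bipolar cells. Each of the 8 conditions had 1 library, so there was no replicate error within a stage, no difference at a single stage could be tested, and every such difference below is a comparison of single libraries.

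In the dark, rods and cones release glutamate, which binds mGluR6 (encoded by Grm6) on the dendrites of ON bipolar cells. The receptor keeps the G protein Go active, and active Go closes the cation channel TRPM1. In light, glutamate falls, the RGS proteins switch Go off, and TRPM1 opens. ON bipolar cells are among the last retinal neurons to be born, and the cascade is assembled at their dendritic tips as the synapses with photoreceptors form.

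Sequences upstream of the annotated starts are shown for 4 of the genes: Cabp5, Trpm1, and Pcp2, whose fraction order turned around during the series and whose windows held a searched motif, and Grm6, which was nearly absent until P5 and whose window held none. RefSeq promoters of build GRCm38.p6 matched 9 of the 10 genes by symbol, with 14 start sites in all. Rgs11 had no entry. The 250 bases before each start were searched on both strands for TAATCC (the core bound by the homeodomain factors Otx2 and Crx, read as GGATTA on the other strand), TAATTA (a general homeodomain core), and the E-box CATATG, and the matches are in capitals. The windows lie at chr7:13397905-13398154 on the plus strand (Cabp5), chr7:64153585-64153834 on the plus strand (Trpm1, the upstream of its 2 starts), chr8:3625283-3625532 on the minus strand (Pcp2, the start of its 4 whose window held the match), and chr11:50850435-50850684 on the plus strand (Grm6), each written 5′ to 3′.
Cabp5: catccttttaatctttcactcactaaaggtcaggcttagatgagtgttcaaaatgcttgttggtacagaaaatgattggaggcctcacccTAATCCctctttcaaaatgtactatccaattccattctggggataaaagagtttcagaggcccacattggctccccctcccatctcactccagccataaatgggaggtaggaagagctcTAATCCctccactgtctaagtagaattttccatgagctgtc
Trpm1: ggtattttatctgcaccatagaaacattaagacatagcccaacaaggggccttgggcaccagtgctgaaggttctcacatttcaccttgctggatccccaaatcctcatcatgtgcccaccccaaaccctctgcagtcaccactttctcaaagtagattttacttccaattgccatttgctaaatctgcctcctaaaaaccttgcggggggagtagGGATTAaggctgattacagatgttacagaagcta
Pcp2: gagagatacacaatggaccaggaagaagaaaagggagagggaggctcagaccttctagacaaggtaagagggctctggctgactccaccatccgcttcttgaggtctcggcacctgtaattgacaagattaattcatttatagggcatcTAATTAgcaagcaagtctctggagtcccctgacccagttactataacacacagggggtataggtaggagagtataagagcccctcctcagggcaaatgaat
Grm6: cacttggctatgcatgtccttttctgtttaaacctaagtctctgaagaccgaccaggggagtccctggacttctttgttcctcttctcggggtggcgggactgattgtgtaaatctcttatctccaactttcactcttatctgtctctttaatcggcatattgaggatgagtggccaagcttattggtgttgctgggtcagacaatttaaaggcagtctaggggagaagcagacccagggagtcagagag
Cabp5 held TAATCC at 160 and at 41 bases before the start, Trpm1 held GGATTA at 34 bases, and Pcp2 held TAATTA at 101 bases, each counted from the first letter of the match. TAATCC or its complement was present in 2 of the 14 windows and in 6.25% of 32851 promoters of the same length, TAATTA in 1 of 14 and in 4.84%, and CATATG in 0 of 14 and in 3.46%. These are matches of letters and not measured binding sites, and 11 of the 14 windows held none of the 3 motifs. Gng13, whose fraction order turned around too, had no match in either of its windows. The other windows of Pcp2 and Trpm1 held none as well.

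The sort was visible in the tables. Nt5e was at 2.43, 31.4, and 9.38 FPKM in Cd73NC and at 97.3, 131, and 124 FPKM in Cd73PC at P2, P5, and P8. FPKM is the fragment count scaled to transcript length and to the mapped fragments of the library, so levels of different genes can be set side by side. All 11 rod genes on a fixed list were higher in Cd73PC at each stage, and the median rod gene in Cd73NC stood at 0.804%, 8.35%, and 6.55% of its Cd73PC level at P2, P5, and P8. Rod genes were thus detected in Cd73NC as well, most at P5. The cells that should carry the cascade were represented in Cd73NC. Of 10 bipolar transcription factors (Vsx1, Otx2, Isl1, and others) 5 were more than 1.5-fold higher in Cd73NC at P2 and 10 at both P5 and P8, on FPKM + 1. The shares of all genes were 14.4%, 15.5%, and 18.6%. Isl1, a homeobox gene of ON bipolar cells and of other retinal neurons, reached 294 FPKM in Cd73NC at P8 against 29.6 in Cd73PC. Depth, estimated from the FPKM steps worth 1 read, was 14600000 to 24400000 reads per library.

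**Figure D1:**
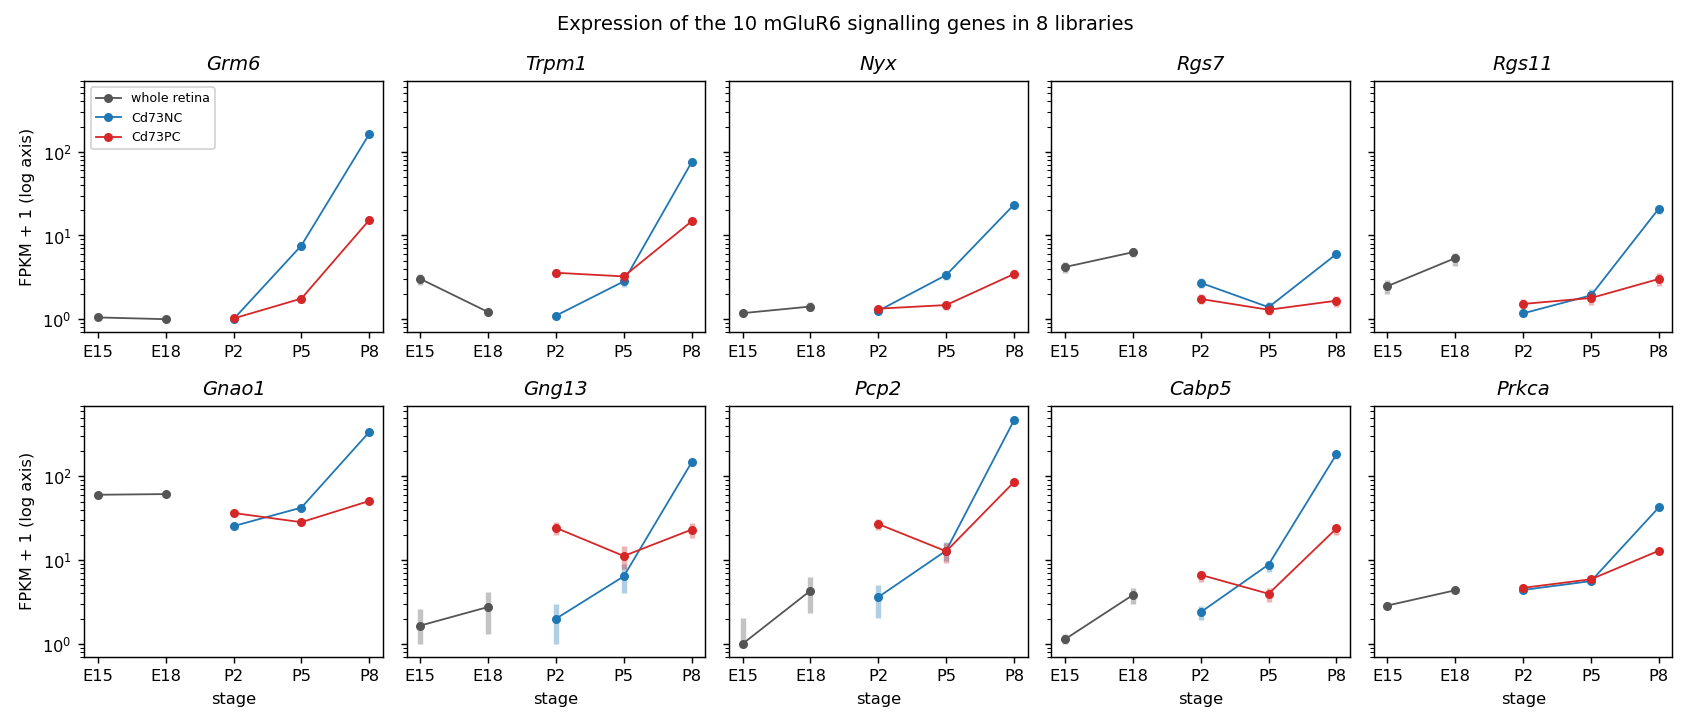
FPKM + 1 on a log axis for each of the 10 genes by stage, in whole retina (grey), Cd73NC (blue), and Cd73PC (red), with 1 library per point and pale bars from the lower to the upper Cufflinks bound. From P5 to P8 the Cd73NC line climbs in all 10 panels, and at P2 the red point lies clearly above the blue one for Trpm1, Gng13, Pcp2, and Cabp5.

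The order of the fractions changed with age. At P2, 4 of the 10 genes (Trpm1, Gng13, Pcp2, and Cabp5) were more than 1.5-fold higher in Cd73PC, where 8.56% of all genes were, and 1 (Rgs7) was higher in Cd73NC, where 14.4% were. At P5, 3 genes (Grm6, Nyx, and Cabp5) were higher in Cd73NC, against 15.5% of all genes, and 1 (Gng13) was higher in Cd73PC, against 7.02%. At P8, all 10 genes were higher in Cd73NC, against 18.6% of all genes, and none was higher in Cd73PC, against 7.54%. Of genes at 1 FPKM or more in either fraction, which included 7, 8, and 10 of the 10 genes in turn, 25%, 27%, and 31.3% were higher in Cd73NC and 14.5%, 12.3%, and 13% in Cd73PC. The median log2 ratio of Cd73NC over Cd73PC on FPKM + 1, stage by stage, was −0.45, 0.10, and 2.70 for the 10 genes and 0, 0, and 0.02 for all genes. Over genes at 1 FPKM or more in either fraction it was 0.14, 0.18, and 0.23, above that of the 10 genes at P2 and P5. In bulk libraries, fewer cells of a type and less RNA per cell cannot be told apart, and this holds for each value below.

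**Figure D2:**
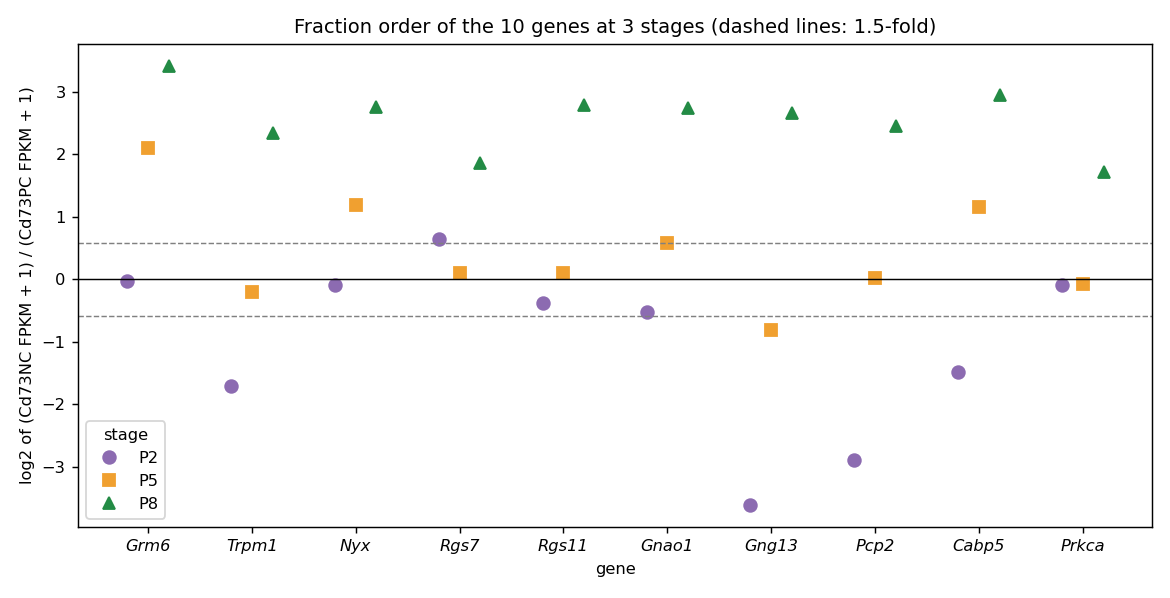
Log2 ratio of Cd73NC over Cd73PC on FPKM + 1 for each gene at P2 (circles), P5 (squares), and P8 (triangles), with 1 library per fraction and dashed lines at 1.5-fold. All 10 triangles lie above the upper line, between 1.72 (Prkca) and 3.41 (Grm6), while the circles reach down to −3.61 (Gng13).

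Over the 3 postnatal stages together, a fit across all genes could be made, with the stages in place of replicates. Both fractions of a stage came from the same retinas. The residual error of this fit mixes library noise with any change of the fraction difference between stages. A gene whose fraction order changes with age therefore gets a wide SE. In limma on log2(FPKM + 1), with stage as a block and 2 residual degrees of freedom, 19.2% of 13055 genes were higher in Cd73NC and 8.90% higher in Cd73PC at an adjusted p under 0.05, and 0 of the 10 genes passed. Grm6 came closest, with a mean log2 difference of 1.83 ± 0.63 (SE) and a limma adjusted p of 0.0821, and was higher in Cd73NC at 2 of 3 stages. The adjusted p was 0.124 for Nyx (1.29 ± 0.53), 0.133 for Rgs7 (0.87 ± 0.37), and 0.280 to 0.925 for the other genes. Without the P2 libraries the limma adjusted p was 0.0113 for Grm6, 0.0335 for Nyx, and 0.0356 for Cabp5, with 1 residual degree of freedom. In that setting, chosen after seeing the data, 3267 of the 13055 genes passed in either direction. Without P5 or without P8, 0 of the 10 genes passed, where 289 and 2624 of all genes did. The fit asks for a mean difference over the stages, and whether the difference changed with stage cannot be tested with 1 library per fraction and stage.

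Grm6 (chr11:50664187-50679710, plus strand, NCBI37/mm9, as are all gene positions below) encodes the receptor that starts the cascade. It was nearly silent until P5 and then appeared mainly in Cd73NC. Its FPKM was 0.0498 at E15 and 0 at E18. From P2 through P5 to P8, Cd73NC held 0, 6.58, and 162 FPKM and Cd73PC held 0.0198, 0.761, and 14.3. These values correspond to about 3 reads at E15 and 0 at E18, to 0, 471, and 15190 reads in Cd73NC, and to 2, 53, and 1128 reads in Cd73PC. For a count of 0 a floor was set at 3 reads, which is 0.0380 FPKM in Cd73NC at P2. Against that floor Grm6 was 173-fold higher at P5 and 4253-fold higher at P8. These folds are not strict lower limits, since the 95% Poisson interval of 0 reads reached 3.69 reads, or 0.0467 FPKM. Cd73NC exceeded Cd73PC 8.65-fold at P5 and 11.3-fold at P8, the widest gap of the 10 genes at P8. At P8 Grm6 was also far above the other metabotropic glutamate receptors in Cd73NC. Grm5 followed at 6.62 FPKM (0.793 in Cd73PC) and Grm7 at 5.25, and Grm7 was the gene of the 8 that was higher in Cd73PC, at 15.1 FPKM.

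Trpm1 (chr7:71298721-71414645, plus strand) encodes the channel at the end of the cascade. Its FPKM was 2.03 at E15 and 0.218 at E18. At the 3 postnatal stages, in order, it stood at 0.102, 1.83, and 74.0 in Cd73NC and at 2.59, 2.24, and 13.8 in Cd73PC. Trpm1 was therefore lowest in Cd73NC at P2, higher in Cd73PC at that stage, level between the fractions at P5, and higher in Cd73NC at P8. The P2 difference was 25.5-fold on FPKM, with bounds of 0.0190 to 0.192 in Cd73NC and 2.17 to 3.01 in Cd73PC, and 3.26-fold on FPKM + 1. The rise from P5 to P8 in Cd73NC was 40.5-fold on FPKM. The row of Trpm1 contains the intronic microRNA gene Mir211, whose own row was at 0 in all 8 libraries.

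Trpm1 is also a gene of melanocytes and of the retinal pigment epithelium (RPE), and at P2 some pigment cell genes had the same order of the fractions. Pmel, a structural protein of pigment granules, was at 0.325 FPKM in Cd73NC and 37.4 in Cd73PC at P2, and Dct, a melanin enzyme, at 1.04 and 16. Of 11 RPE and melanocyte genes, 5 (Tyr, Tyrp1, Dct, Pmel, and Mlana) were more than 1.5-fold higher in Cd73PC at P2, against 8.56% of all genes. Rrh was the 1 higher in Cd73NC, against 14.4%. The list summed to 31.9 FPKM in Cd73NC and 80.7 in Cd73PC at P2, then to 62.3 and 62.5, and by P8 to 56.4 and 82.5. Most of the Cd73NC sum at P2 was Rrh (29.1 FPKM, against 7.88 in Cd73PC), so the sums understate the P2 gap of the 5 genes named. At P8, where Trpm1 was higher in Cd73NC, Pmel (21.4 and 41.3 FPKM in Cd73NC and Cd73PC) and Dct (9.39 and 20.4) were still higher in Cd73PC. Rpe65, the isomerase that defines RPE, was at 0 in both fractions at P2 and was detected only later. It stood at 0.351 and 0.253 FPKM in Cd73NC and Cd73PC at P5 and at 2.59 and 4.26 at P8. The part of pigment cell RNA in the Trpm1 values was not tested.

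Nyx (chrX:13044798-13066439, plus strand) encodes nyctalopin, a leucine-rich repeat protein that holds TRPM1 at the dendritic tip. Its FPKM was 0.181 at E15 and 0.416 at E18. Cd73NC values were 0.260 (P2), 2.37 (P5), and 22.4 (P8), and Cd73PC values were 0.336, 0.475, and 2.47. The fractions overlapped within their bounds at P2 and were apart at P5 (4.99-fold) and P8 (9.06-fold), with Cd73NC higher.

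Gnao1 (chr8:96334738-96493288, plus strand) encodes the alpha subunit of Go, which many neurons use. It had the highest level of the 10 genes before birth, at 59.4 FPKM at E15 and 60.5 at E18. From P2 through P5 to P8, Cd73NC held 24.5, 41.4, and 337 FPKM and Cd73PC held 35.6, 27.4, and 49.8. The fractions stood less than 1.5-fold apart on FPKM + 1 at P2 and P5 (1.43-fold higher in Cd73PC, then 1.49-fold higher in Cd73NC), and Cd73NC was 6.66-fold higher at P8. After scaling to the same upper quartile the P2 difference passed 1.5-fold, with a log2 ratio of −0.61. With a pseudocount of 0.1 the P5 difference passed 1.5-fold, with a log2 ratio of 0.59. Of the other alpha subunits of the Gi/o class, Gnai2 (158 and 41.7 FPKM in Cd73NC and Cd73PC at P8) and Gnai3 (45.5 and 17.7) were also higher in Cd73NC at P8, and Gnaz was higher in Cd73PC (5.03 and 11.9). A noncoding row inside Gnao1, 4930488L21Rik, stayed at or below 0.106 FPKM.

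Gng13 (chr17:25854117-25856047, plus strand) encodes a gamma subunit that pairs with Gnb3 in ON bipolar cells. Its FPKM was 0.651 at E15 and 1.75 at E18. At the 3 postnatal stages, in order, it stood at 0.995, 5.41, and 146 in Cd73NC and at 23.3, 10.2, and 22.2 in Cd73PC. Gng13 was thus close to the same level in Cd73PC at P2 and P8, while its level in Cd73NC went from far below that to far above it. On FPKM + 1 it was 12.2-fold higher in Cd73PC at P2, the largest difference of the 10 genes at that stage, 1.75-fold higher in Cd73PC at P5, where the bounds overlapped (2.99 to 7.89 and 6.73 to 13.7), and 6.35-fold higher in Cd73NC at P8. The end of Gng13 overlaps Chtf18 on the other strand, by 73 bases in the deposited rows and by 399 exonic bases in the gene annotation, and the libraries did not keep strand. Chtf18 ran from 1.69 to 10.3 FPKM and was lower in Cd73PC (2.63) than in Cd73NC (6.96) at P2, the opposite order to Gng13. Among 12 gamma subunits, the phototransduction subunits Gngt1 (49.6 and 753 FPKM in Cd73NC and Cd73PC at P8) and Gngt2 (152 and 812) kept the higher level in Cd73PC, while Gng3 (82.6 and 11.6) was higher in Cd73NC.

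Rgs11 (chr17:26339907-26348269, plus strand) and Rgs7 (chr1:176989207-177422676, minus strand) encode the RGS proteins that speed the shut-off of Go. They were the 2 least abundant of the 10 genes in Cd73NC at P8. Rgs11 was at 1.48 FPKM at E15 and 4.37 at E18, at 0.174, 0.926, and 20.0 in Cd73NC at P2, P5, and P8, and at 0.523, 0.789, and 2.03 in Cd73PC. At P2 these were only about 6 reads in Cd73NC and 23 in Cd73PC, a 3.01-fold difference on FPKM and 1.30-fold on FPKM + 1. By P8, with about 822 and 70 reads, Rgs11 was 9.88-fold higher in Cd73NC.

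Rgs7 was at 3.20 FPKM at E15 and 5.31 at E18, at 1.72, 0.392, and 5.01 in Cd73NC, and at 0.743, 0.296, and 0.664 in Cd73PC. It was the gene of the 10 that was lower in Cd73NC at P5 than at P2, and its P8 level there was close to that of E18. Rgs7 was 1.56-fold higher in Cd73NC on FPKM + 1 at P2, a call that ended after upper quartile scaling or quantile normalization (log2 ratios of 0.58 and 0.50). At P8 it was 7.55-fold higher in Cd73NC on FPKM. Among the related R7 RGS genes, Rgs9, the regulator used in photoreceptors, was higher in Cd73PC at each stage and stood at 14.7 FPKM in Cd73NC and 148 in Cd73PC at P8.

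Pcp2 (chr8:3623371-3625545, minus strand) encodes a GoLoco protein that binds the alpha subunit of Go and is abundant in ON bipolar cells and in Purkinje cells. It was at 0.000000423 FPKM, effectively 0, at E15 and at 3.32 at E18. Cd73NC values were 2.62 (P2), 12.0 (P5), and 468 (P8), and Cd73PC values were 25.9, 11.8, and 84.7. Pcp2 was the most abundant of the 10 genes in Cd73NC at P8. On FPKM it was 9.90-fold higher in Cd73PC at P2, equal within the bounds at P5, and 5.52-fold higher in Cd73NC at P8. Part of Pcp2 is covered on the other strand by 2900053A13Rik, which stayed between 5.39 and 8.09 FPKM in all 8 libraries. Of 5 other GoLoco genes, Rgs12 was higher in Cd73NC (13.9 and 2.53 FPKM in Cd73NC and Cd73PC at P8) and Gpsm3 in Cd73PC (3.39 and 19.1) at all 3 stages.

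Cabp5 (chr7:13983504-13994227, plus strand) encodes a calcium-binding protein of rod bipolar cells and of some cone bipolar cells. Its FPKM was 0.136 at E15 and 2.83 at E18. From P2 through P5 to P8, Cd73NC held 1.39, 7.85, and 183 FPKM and Cd73PC held 5.66, 2.96, and 22.9. It passed from Cd73PC to Cd73NC earlier than the other genes of the P2 group, being 4.06-fold higher in Cd73PC at P2, 2.65-fold higher in Cd73NC at P5, and 7.99-fold higher in Cd73NC at P8. Of the related calcium-binding genes, Cabp4, which acts in photoreceptor terminals, was higher in Cd73PC at P8 (3.55 and 31.2 FPKM in Cd73NC and Cd73PC), and Cabp1 was higher in Cd73NC (90.1 and 15.3).

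Prkca (chr11:107794701-108205202, minus strand) encodes protein kinase C alpha, the common histological marker of rod bipolar cells. Its FPKM was 1.87 at E15 and 3.36 at E18. At the 3 postnatal stages, in order, it stood at 3.40, 4.61, and 41.7 in Cd73NC and at 3.67, 4.91, and 12.0 in Cd73PC. The fractions overlapped within their bounds at P2 and P5, and Cd73NC was 3.49-fold higher at P8, the smallest gap on FPKM at that stage. Of the other protein kinase C genes, Prkce (37.8 and 7.21 FPKM) and Prkcb (12.6 and 1.41) also favoured Cd73NC at P8, and Prkcz favoured Cd73PC (6.04 and 12.2).

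Set side by side in Cd73NC at P8, the order of FPKM was Pcp2, Gnao1, Cabp5, Grm6, Gng13, Trpm1, Prkca, Nyx, Rgs11, and Rgs7, over a range from 468 to 5.01. Neighbours with overlapping bounds, which cannot be ordered, were Cabp5 and Grm6, Grm6 and Gng13, and Nyx and Rgs11. The FPKM of Cabp5 and of Grm6 in this library lay above their own deposited upper bounds (170 and 159), which was so for 2 of the 80 values of the 10 genes.

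Within Cd73NC most of the genes were higher at each later stage. From P2 to P5, 8 of the 10 genes were more than 1.5-fold higher, against 7.93% of all genes, Rgs7 was lower, against 9.51%, and Prkca stayed within 1.5-fold. From P5 to P8 all 10 were higher, against 8.47% of all genes, and none was lower, against 7.78%. On FPKM + 1 the P5 to P8 rise was highest for Pcp2 (36.1-fold, against 26.5-fold for Trpm1). On FPKM it was 40.5-fold for Trpm1, 39.0-fold for Pcp2, 27.0-fold for Gng13, 24.6-fold for Grm6, 23.3-fold for Cabp5, 21.6-fold for Rgs11, and between 8.16-fold (Gnao1) and 12.8-fold (Rgs7) for the other 4. In Cd73PC, from P2 to P5, Grm6 was higher, against 3.36% of all genes, and Gng13, Pcp2, and Cabp5 were lower, against 8.57%. From P5 to P8, 9 genes were higher in Cd73PC, all but Rgs7, against 3.31% of all genes, and none was lower, against 4.78%. Neighbouring steps share the P5 library. Before birth, from E15 to E18, 6 genes (Rgs7, Rgs11, Gng13, Pcp2, Cabp5, and Prkca) were higher, against 4.6% of all genes, and Trpm1 was lower, against 2.1%.

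The higher level of Trpm1, Gng13, Pcp2, and Cabp5 in Cd73PC at P2 came with other differences of that library. All 6 microglia genes were more than 1.5-fold higher in Cd73PC at P2, against 8.56% of all genes. Their summed level was 7.70 FPKM in Cd73NC and 43.4 in Cd73PC at P2, and 54.4 and 37.7 at P5. Rod genes summed to 93.6 FPKM in Cd73NC and 4249 in Cd73PC. Of the bipolar transcription factors, Otx2, which photoreceptor precursors also use, was higher in Cd73PC at P2 (349 and 777 FPKM), while Vsx1, the bipolar gene with the course most like Grm6, was at 0.00119 and 0.0122 FPKM. Progenitor and cell cycle genes, all 8 of them, were higher in Cd73NC, against 14.4% of all genes, with sums of 1762 and 451 FPKM. The part of these cells in the P2 values of the 4 genes was not tested.

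**Figure D3:**
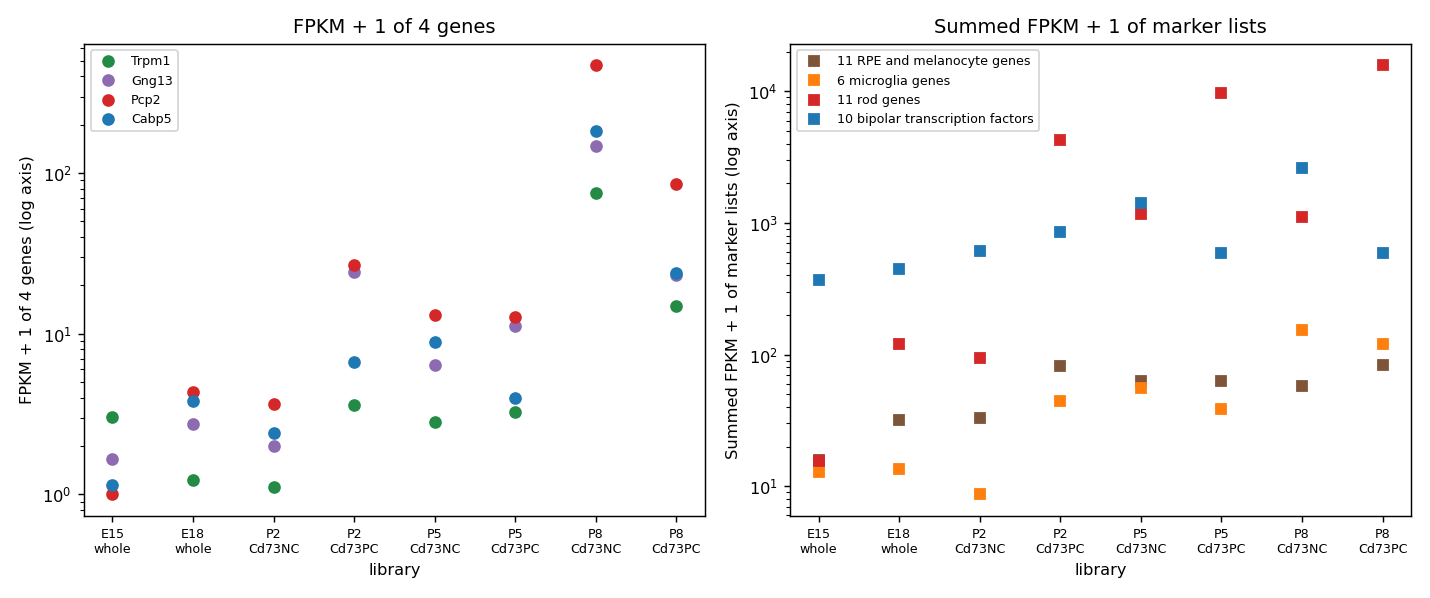
Left, FPKM + 1 of Trpm1, Gng13, Pcp2, and Cabp5 in the 8 libraries, and right, the summed FPKM + 1 of marker lists for pigment cells, microglia, rods, and bipolar cells, all on log axes with 1 point per library. In Cd73PC at P2 all 4 genes and the pigment cell, microglia, and rod sums lie above Cd73NC of that stage, as does the bipolar sum (850 against 616 FPKM). Most of that bipolar sum in Cd73PC was Otx2 (777 FPKM, against 349 in Cd73NC). Most of the pigment cell sum in Cd73NC at P2 was Rrh (29.1 FPKM, against 7.88 in Cd73PC). Of the 10 bipolar factors, 5 were more than 1.5-fold higher in Cd73NC at P2 and 1 in Cd73PC. At P8 the 4 genes and the bipolar sum are higher in Cd73NC, while the pigment cell (82.5 against 56.4) and rod (15724 against 1112) sums remain higher in Cd73PC.

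All 10 genes were detected in Cd73PC at P8 too. There they stood at 8.83% (Grm6) to 28.7% (Prkca) of their Cd73NC level, with a median of 14.0%. Bipolar transcription factors stood at a median of 11.4%, OFF bipolar genes at 10.4%, and Müller glia genes at 20.0%. Grm6, Rgs11, Nyx, Cabp5, and Rgs7 lay below 14% and Gnao1, Gng13, Pcp2, Trpm1, and Prkca above. No other cell class was sorted, so RNA of bipolar cells in the Cd73PC gate and expression by the rod lineage itself cannot be told apart.

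**Figure D4:**
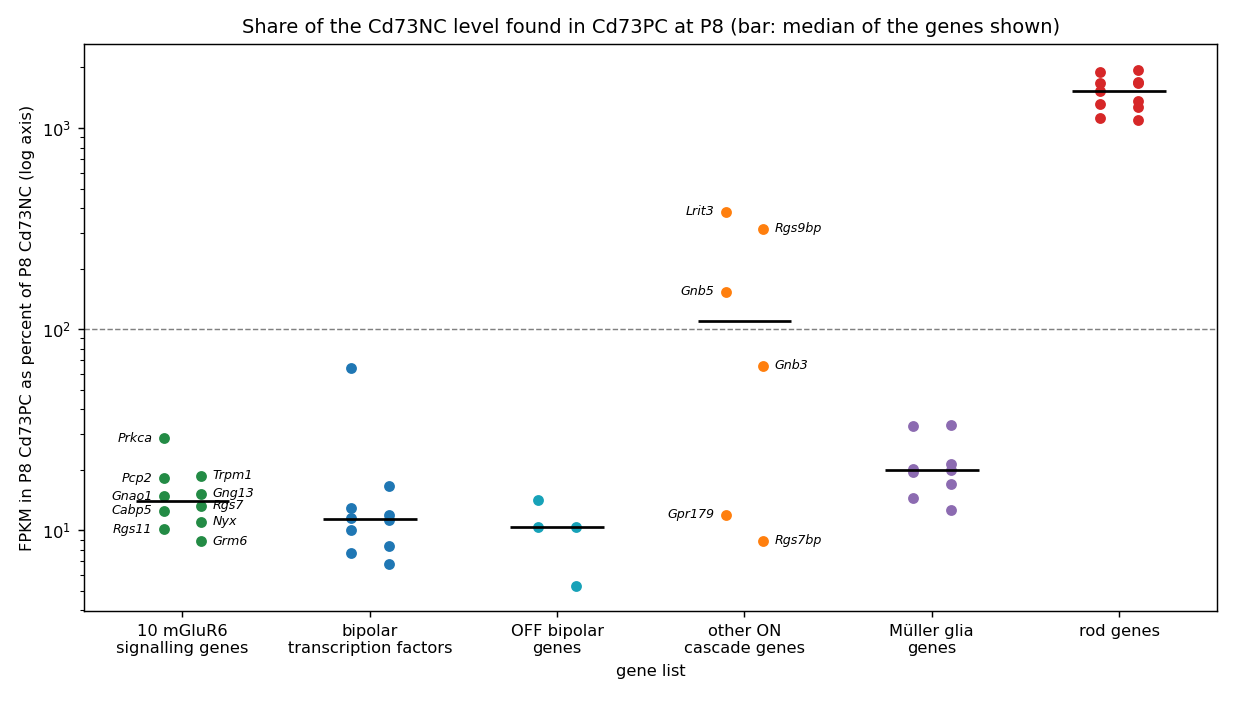
FPKM in Cd73PC as a percent of Cd73NC at P8 on a log axis, 1 point per gene at 1 FPKM or more in either fraction, with a bar at the median of each list and a dashed line at equal levels. The 10 genes lie between 8.83% and 28.7%, near the bipolar and Müller glia lists, while the other ON cascade genes spread on both sides of the dashed line.

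Other genes of the cascade did not all follow. Of 6 listed, 3 were higher in Cd73NC and 3 in Cd73PC at P8, against 18.6% and 7.54% of all genes. At P2, 1 was higher in Cd73NC and 4 in Cd73PC, against 14.4% and 8.56%. Gpr179, the orphan receptor that anchors RGS proteins, was at 1.35, 4.31, and 77.4 FPKM in Cd73NC and at 0.551, 0.726, and 9.24 in Cd73PC at P2, P5, and P8, and it was more than 1.5-fold higher in Cd73NC at all 3 stages. Rgs7bp, a membrane anchor of R7 RGS proteins, was at 3.14 and 0.278 FPKM in Cd73NC and Cd73PC at P8. Gnb3, the beta subunit of this cascade and of cones, was higher in Cd73PC at P2 (35.1 and 208) and P5 (139 and 236) and higher in Cd73NC at P8 (388 and 255). Gnb5, the partner of R7 RGS proteins in rods as well, was higher in Cd73PC at all 3 stages (123 and 189 at P8). So were Rgs9bp, the anchor of Rgs9 (15.4 and 48.5), and, at P2 and P8, Lrit3 (4.80 and 18.4), which photoreceptors supply to the synapse. Of genes from the photoreceptor side of this synapse, 6 of 6 were higher in Cd73PC at P2 and 5 of 6 at P5 and P8. The shares of all genes were 8.56%, 7.02%, and 7.54%. Among the 6, Slc17a7, the vesicular glutamate transporter of photoreceptors, was at 174 FPKM in Cd73NC and 505 in Cd73PC at P8.

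Genes with a course like that of Grm6 were ranked by Pearson's r of log2(FPKM + 1) over the 8 libraries among 8283 genes that varied. The values are a description over the 8 libraries, in which Cd73NC at P8 gave the highest Grm6 level by far. The most alike were Vsx1, a homeobox gene of cone bipolar cells (r = 0.997, 153 FPKM in Cd73NC at P8), Gsg1 (0.996), Gabrr1, a GABA receptor subunit of bipolar terminals (0.991), Otor (0.989), and Scgn, a calcium-binding protein (0.987), followed by Fmn1, Chrnb1, A730046J19Rik, and Selplg (0.987 to 0.978). Of the cascade, Nyx came closest (0.981), then Prkca (0.951), Cabp5 (0.942), Trpm1 (0.918), Pcp2 (0.863), Gng13 (0.800), Gnao1 (0.793), and Rgs11 (0.753), while Rgs7 stood apart at 0.154. Against the mean standardised course of the 10 genes the most alike were Clstn3 (0.987), Siah3 (0.986), and D630023F18Rik (0.985), and then Lrtm1, Glra1, Slc4a10, Abca8a, Gnat3, Pvrl4, and Ace.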

How the data were processed

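RNA sequencing libraries from 8 samples were analysed, 1 per condition. The authors sequenced poly(A) RNA as unstranded single-end reads, aligned them to NCBI37/mm9 (TopHat2 2.0.8b and Cufflinks 2.1.1 in the submitters' processing notes), and deposited the FPKM of 23021 rows per library with lower and upper bounds. The bounds describe the estimate within a library and not the spread between animals. Here 798 small RNA rows were left out and rows of a symbol were summed, which gave 21826 genes. Ratios were taken on log2(FPKM + 1), which understates the change of low genes, and counted past 1.5-fold. Rows marked failed (4 to 10 per library) were missing values. Absolute depth is an estimate. Below 0.3 FPKM, values moved in steps of 1 read, and with NCBIM37 transcript lengths and fragments of 200 bases, 67.8% to 76.7% of values up to 5 reads came out whole within 0.1. Read floors cover counting error only. The libraries were amplified by PCR.

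The members and lists were chosen with earlier results of these data known. Named were all members, the 6 cascade partners, the most abundant or opposed genes of each other list, the genes of most similar course, and rows overlapping a member. Rpe65, Tyr, Tyrp1, Mlana, and Kcnip1 were named after their values were seen. Files were read with Python 3.11.15 and pandas 2.3.3, and the code was tested on simulated data. Alternatives were another or no pseudocount, a filter at 1 FPKM, upper quartile scaling, quantile normalization, small RNAs kept, rows not summed, a 2-fold threshold, and bounds apart. Added after seeing the data was a limma 3.58.1 fit (R 4.3.3) of log2(FPKM + 1) on stage and fraction in the 6 postnatal libraries, over genes at 1 FPKM or more in at least 1 of them, with Benjamini-Hochberg adjustment over all of these genes. The study states that both fractions came from the same retinas. Across genes, the deviations of the libraries of a stage from their fraction means correlated at 0.668 (P2), 0.429 (P5), and 0.690 (P8). These deviations include the changes with age common to both fractions, so the correlations cannot show that the retinas were shared. Promoters came from RefSeq, GRCm38.p6. Protein sequences were not used here. Some genes that the naming rule selected are not reported here.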

Additional observations from a re-analysis of the deposited data

Results flagged for a closer look

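The fraction order of 4 genes turned around between P2 and P8. The log2 ratio of Cd73NC over Cd73PC on FPKM + 1 went from −1.70 to 2.34 for Trpm1, from −3.61 to 2.67 for Gng13, from −2.90 to 2.45 for Pcp2, and from −1.48 to 2.94 for Cabp5. They stand here because their only library pair at P2 and their only pair at P8 lay more than 1.5-fold apart in opposite directions, and the difference between the stages was not tested, since each fraction had 1 library at each stage.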

How the results depend on the processing

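Within a stage no library could be left out, since each condition had 1. The limma fit over the 3 stages and its alternatives were chosen after seeing the data. With stage pairs as a block it called 3667 genes and 0 of the 10 (1 at an unadjusted p under 0.05), and without the block 1068 and 0 (0 unadjusted). With a pseudocount of 0.1 it called 4147 and 0 (2 unadjusted). With no filter on low values it called 0 genes in all, with 5571 of 21810 at an unadjusted p under 0.05; 3740 of these genes had the same value in all 6 libraries. Leaving out a stage gave 289 (without P5) to 3267 genes (without P2), and 0 to 3 of the 10, the 3 (Grm6, Nyx, and Cabp5) without P2. The lowest limma adjusted p of the 10 genes ran from 0.0113 to 0.328 over these settings. Of 111 recomputed counts and medians, 9 moved by more than 1.5-fold and 0 changed direction with a call. Without a pseudocount, the median log2 ratio at P2 was −1.59 over 9 genes, Grm6 being at 0 in Cd73NC and left out, and 2 genes rose in Cd73PC from P2 to P5. At a 2-fold threshold 0 genes rose there, 0 were higher in Cd73NC at P2, and 0 were higher in Cd73PC at P5. The gene higher in Cd73NC at P2, Rgs7, was also lost (0 genes) under upper quartile scaling and under quantile normalization. Genes higher in Cd73PC at P5 numbered 2 under quantile normalization (Gng13 and Trpm1) and 0 where the bounds had to be apart. The small median at P5 was −0.10 under quantile normalization. Of 209 recomputed ratios of single genes, 12 moved, all of them with a pseudocount of 0.1 or none. None past 1.5-fold as reported changed sign, but 4 within 1.5-fold did, all at P5: Pcp2 under upper quartile scaling (−0.08) and quantile normalization (−0.16), and Rgs7 (−0.04) and Rgs11 (−0.24) under quantile normalization. Gnao1 at P5 passed 1.5-fold with a pseudocount of 0.1 or none (0.59), which raised the count higher in Cd73NC from 3 to 4. At P8 the count of 10 genes higher in Cd73NC was obtained under every alternative. Depth limits Grm6 before P5, Rgs11 and Trpm1 in Cd73NC at P2, and Cabp5 at E15 (about 3 reads), which rest on few reads, and Gng13 in Cd73NC at P2, whose bounds ran from 0 to 1.98 FPKM.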

Other observations

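Of the other lists, OFF bipolar genes, which mark the bipolar cells that use ionotropic glutamate receptors in place of mGluR6, numbered 5. Of these, 3, 3, and 4 were more than 1.5-fold higher in Cd73NC at P2, P5, and P8, against 14.4%, 15.5%, and 18.6% of all genes. At each stage 0 were higher in Cd73PC, against 8.56%, 7.02%, and 7.54%. The 3 at P2 included Kcnip1, which fell in Cd73NC from 9.06 FPKM at P2 to 0.282 at P5. They also included Fezf2, which was at 21.2 FPKM in whole retina at E15. Grik1, a kainate receptor subunit, was at 0.124, 16.1, and 47.5 FPKM in Cd73NC and at 0.158, 1.37, and 6.74 in Cd73PC at P2, P5, and P8. It thus reached a higher level at P5 than Grm6, with 16.1 against 6.58 FPKM, and a lower one at P8, with 47.5 against 162 FPKM. Fezf2, a zinc finger gene, was at 6.79, 9.79, and 22.3 FPKM in Cd73NC.

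Among the melastatin channels, Trpm3 was higher in Cd73NC at all 3 stages (13.3, 9.45, and 8.11 FPKM against 5.16, 3.25, and 2.09 in Cd73PC), and Trpm7 stayed within 1.5-fold. Among marker lists of other cells, ganglion cell genes summed to 965 FPKM in whole retina at E15 and to 4.77 in Cd73NC at P8, and horizontal cell genes to 220 FPKM in Cd73NC at P8, of which Prox1, which bipolar and amacrine cells also use, gave 166. Erythroid genes summed to 5170 FPKM in Cd73NC and 2075 in Cd73PC at P8, mostly Hba-a1 (5073 and 1994). Cone genes summed to 284 and 989 FPKM, of which Gngt2 gave 152 and 812. Amacrine genes summed to 74.7 and 61.6 FPKM, of which Slc6a9 gave 10.4 and 50.7. Of the 7 amacrine genes found, 4 were more than 1.5-fold higher in Cd73NC, against 18.6% of all genes. Slc6a9 was the 1 higher in Cd73PC, against 7.54%. Endothelial and pericyte genes summed to 91.0 and 15.5 FPKM, of which Kdr gave 67.5 and 9.47.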
